A study of Mus musculus with 2 samples.

Results

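The forkhead genes encode the FOX transcription factors, each with a winged-helix DNA-binding domain. They were taken as all genes on the array whose symbol was Fox followed by a single letter and a number. The rule took in 44 genes and 64 probes, out of 26886 named genes and 56605 non-control probes. It left out 4 symbols that only begin in the same way, Foxd2os, Foxl2os, Foxred1 and Foxred2. The cells were a mouse glioblastoma stem cell line, grown as neurospheres in serum-free medium with EGF and bFGF, from a glioblastoma induced de novo with the SB (Sleeping Beauty) transposon. Control cells had been transduced with lentivirus carrying a non-target shRNA (short hairpin RNA), and knockdown cells stably with lentivirus carrying a Stat5b shRNA. Both cultures came from the same line, and each was measured on 1 Agilent 1-colour (Cy3) array. The comparison addressed what suppression of Stat5b, which carries signals of cytokine receptors to the nucleus, did to gene expression.

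Members of the family recognise related DNA sequences and differ mainly in when and where they are expressed and in how they are regulated. FOXM1 is made in dividing cells and drives genes of G2 and mitosis. FOXO factors are held in the cytoplasm when AKT phosphorylates them, and otherwise turn on genes of cell cycle arrest, stress resistance, metabolism and autophagy. Many of the remaining members direct the formation of single organs or cell lineages, among them FOXJ1 in ciliated cells and FOXC1 in meninges and blood vessel walls.

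With 1 array in each group there was no replicate check, no test was possible, and the culture, the array and the knockdown cannot be told apart. Each comparison is therefore a description of 2 arrays. Values are processed signals in arbitrary units, and differences are log2 knockdown minus control after each array was scaled to its 75th percentile (493.2 and 493.6). A probe counted as measured when it was well above background on both arrays, a gene's difference was the mean over its measured probes, and ± gives the scanner software's own signal error, which holds no biological spread. The SD of the difference was 0.06 among replicate spots of 1 probe (297 probes) and 0.31 among different probes of 1 gene (7244 genes). For genes outside the family, the signals given are means over their measured probes, which the brightest dominate. Genes were set apart by size, as at least 2-fold higher or lower.

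The targeted gene followed its label: the brighter Stat5b probe gave 1991 in control and 498 in knockdown cells, a difference of -2.0 ± 0.20, or 25% of control. Over 16357 measured genes the median difference was 0.01, with 5th and 95th percentiles of -0.76 and 0.89. Well above background were 59.5% of probes on the control and 58.6% on the knockdown array. In the last 64 of the 384 rows of the array, 1.06% of measured probes were at least 4-fold apart, against 0.36% in the other rows, so members and genes measured only there are named as such; 9 of the 64 forkhead probes lie in those rows. Of 11 stem cell markers, 6 were measured, including Nes (18174 and 15867) and Vim (96090 and 88538). Sox2, Olig1 and Fabp7 were not well above background on either array, and Olig2 reached that level only in knockdown cells (6.28 and 53.2). Olig1, Olig2 and Fabp7 had probes only in the last rows.

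Most forkhead genes were detected. Well above background on both arrays were 29 of the 44 (65.9%, against 60.8% of all named genes), through 36 probes. The 11 members not well above background on either array, where the figure for all genes was 34.9%, were all lineage factors: Foxa1, Foxa3, Foxb1, Foxb2, Foxd1, Foxd3, Foxe1, Foxf2, Foxi2, Foxp2 and Foxr2. Their 13 probes gave signals between 2.60 and 13.7. For comparison, the lowest signals among probes well above background were 12.1 in control and 13.0 in knockdown cells.

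Another 4 members were detected on a single array, all close to that limit. Foxd4 (15.7 in control, 12.6 in knockdown), Foxi3 (15.6 and 7.62) and Foxp3 (14.4 and 13.3) were well above background only in control cells, as were 2.32% of all genes. Foxi3 is a factor of the embryonic ectoderm, and Foxp3 defines regulatory T cells. Foxi1, a factor of ion-transporting epithelial cells, was well above background only in knockdown cells (12.7 and 15.7), as were 1.88% of all genes. Taken against the other array's lowest signal well above background, or the gene's own signal there if higher, these were at least 1.21-fold, 1.20-fold and 1.08-fold higher in control for Foxd4, Foxi3 and Foxp3, and at least 1.24-fold higher in knockdown cells for Foxi1. Such bounds do not separate them from the detection limit.

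**Figure D1:**
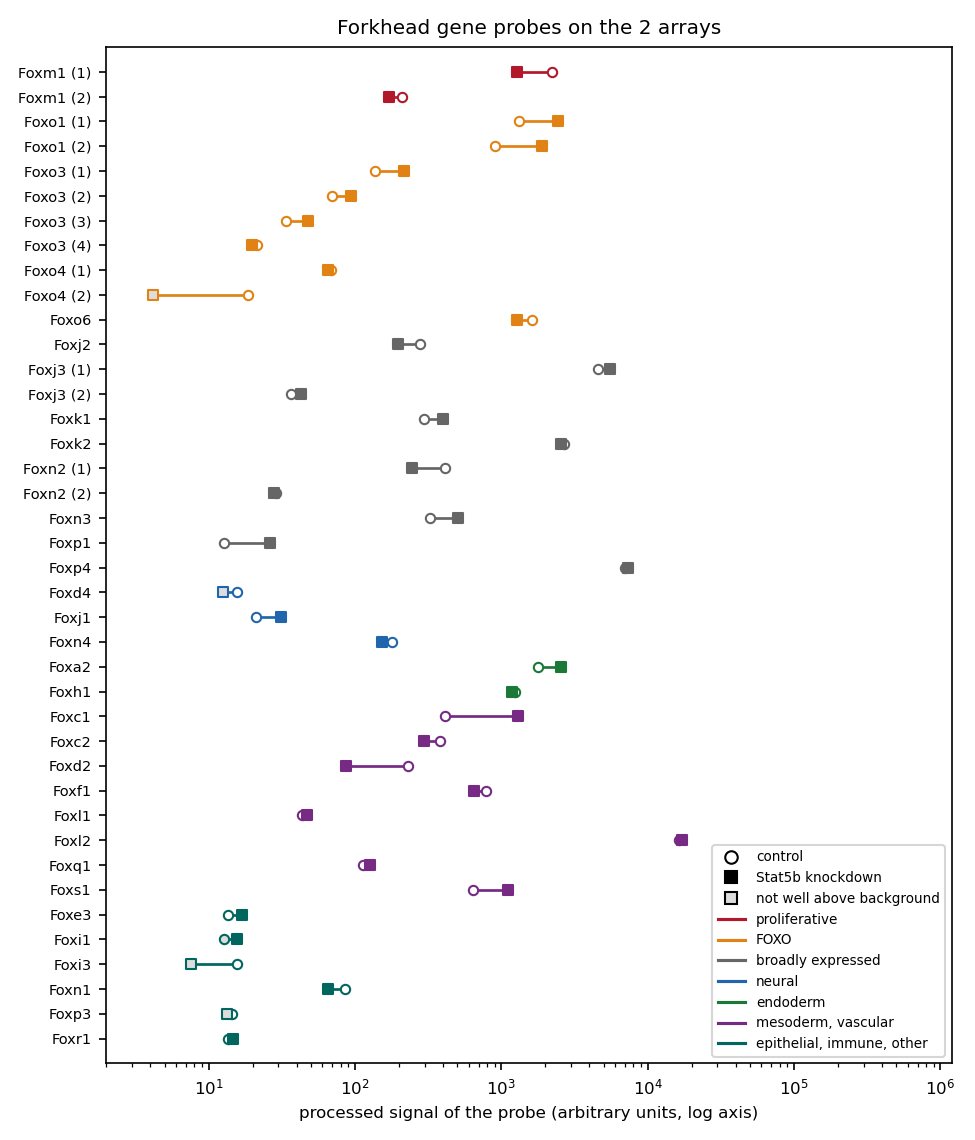
Processed signal (arbitrary units, log axis) of each forkhead probe well above background on at least 1 array and reported here, in control (open circles) and Stat5b-knockdown cells (filled squares), with light grey fill for an array where the probe was not well above background; colours give the class and numbers in brackets separate probes of 1 gene. Foxc1 (413 to 1300) and Foxo1 (1328 to 2459 and 906 to 1903) lie to the right in knockdown cells, and Foxd2 (230.4 to 87.5) and the brightest Foxm1 probe (2228 to 1279) to the left.

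As a family the measured forkhead genes did not move one way. Of the 29, 17 were above 0 (58.6%, against 51.2% of all genes) and 12 below 0 (against 48.8%), with a median of 0.11 and a range from -1.40 to 1.65. At least 2-fold higher were 2 members, Foxc1 and Foxp1 (6.90%, against 3.67% of all genes), and 1 was at least 2-fold lower, Foxd2 (3.45%, against 2.41%). Together these 3 compare with 6.08% of all genes beyond 2-fold either way. Foxp1 at 1.05 stood just beyond 2-fold and Foxo1 at 0.98 just short of it. On the lower side Foxd2 at -1.40 was followed by Foxm1 at -0.55, short of 2-fold. Differences of at least 0.31, the SD between probes of a gene, were found upward in 11 members and downward in 7, while 11 lay closer to 0. The same limits held 23.0%, 20.4% and 56.6% of all genes.

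**Figure D2:**
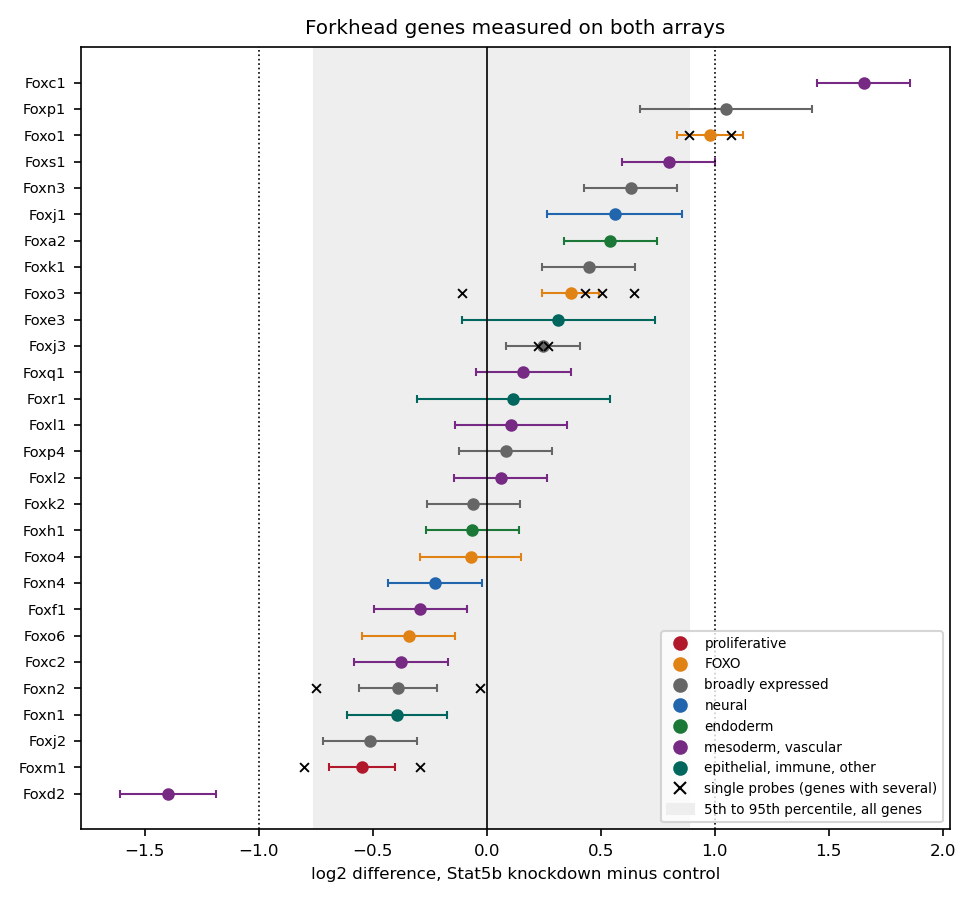
Log2 difference, knockdown minus control, of the measured forkhead genes reported here, ordered by value and coloured by class; crosses are single probes of genes with several, bars give the scanner software's error, dotted lines 2-fold and the grey band the 5th to 95th percentile of all genes (-0.76 to 0.89). Foxc1 at 1.65, Foxp1 at 1.05 and Foxd2 at -1.40 are beyond 2-fold, and Foxo1 at 0.98 lies just short of it.

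Promoters are shown for the members with the largest differences on bright probes, Foxc1, Foxd2 and Foxo1, and for Foxn3, the only 1 of the 16 measured members with a promoter entry that held the palindrome TTCNNNGAA, the DNA element that STAT factors bind. RefSeq promoters (GRCm38.p6) matched 28 of the 44 members, with 33 start sites. Measured members with no entry, whose promoters were not scanned, included Foxc2, Foxf1, Foxh1, Foxj1, Foxk1, Foxl1, Foxm1, Foxn2, Foxo4, Foxo6, Foxq1 and Foxs1. Each line gives the 250 bases before the start site, 5′ to 3′ on the gene's strand, for Foxc1 at chr13:31806396-31806645 (plus strand), Foxd2 at chr4:114908899-114909148 (minus strand), Foxo1 at chr3:52268087-52268336 (plus strand) and Foxn3 at chr12:99450075-99450324 (minus strand). Capitals mark matches, on either strand, to TTCNNNGAA, to TTTGAA (the cell cycle homology element of mitotic genes), to CCAAT, to TGTTTAC (a core that forkhead factors bind) and to GGGCGG (the GC box); a TTTGAA can lie inside a TTCNNNGAA.
Foxc1: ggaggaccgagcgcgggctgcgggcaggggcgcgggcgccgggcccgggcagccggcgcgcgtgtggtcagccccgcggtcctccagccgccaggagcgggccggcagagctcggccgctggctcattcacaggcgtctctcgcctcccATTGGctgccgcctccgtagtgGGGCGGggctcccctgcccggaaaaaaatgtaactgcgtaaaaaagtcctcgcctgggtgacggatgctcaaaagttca
Foxd2: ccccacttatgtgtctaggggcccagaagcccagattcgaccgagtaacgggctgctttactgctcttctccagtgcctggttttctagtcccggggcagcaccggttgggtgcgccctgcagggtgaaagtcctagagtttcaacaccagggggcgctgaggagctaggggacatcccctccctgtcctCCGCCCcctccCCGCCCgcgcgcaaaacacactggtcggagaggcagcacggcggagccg
Foxo1: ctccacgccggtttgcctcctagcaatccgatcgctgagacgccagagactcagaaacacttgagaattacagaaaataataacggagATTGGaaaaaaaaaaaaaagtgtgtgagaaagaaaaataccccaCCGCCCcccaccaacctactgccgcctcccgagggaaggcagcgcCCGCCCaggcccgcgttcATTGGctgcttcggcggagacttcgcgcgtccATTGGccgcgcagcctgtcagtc
Foxn3: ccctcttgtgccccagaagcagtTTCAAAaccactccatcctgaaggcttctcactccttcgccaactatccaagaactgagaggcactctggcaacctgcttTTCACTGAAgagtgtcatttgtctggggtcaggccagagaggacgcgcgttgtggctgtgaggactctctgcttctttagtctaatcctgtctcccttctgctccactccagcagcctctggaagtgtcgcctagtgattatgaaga

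In the Foxc1 promoter an inverted CCAAT began 101 bases and a GC box 79 bases before the start. Foxd2 had GC boxes at 60 and 49 bases, and Foxo1 had inverted CCAAT matches at 162, 55 and 23 bases and GC boxes at 118 and 73 bases. The Foxn3 promoter held TTCACTGAA at 147 bases and an inverted TTTGAA at 227 bases. None of the other 3 shown held TTCNNNGAA or TTTGAA. These are matches of letters, and binding was not measured.

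Over all 33 forkhead promoters, TTCNNNGAA occurred in 2 (6.06%; Foxn3 and Foxp3), against 7.02% of 32851 RefSeq promoters. TTTGAA occurred in 3 (9.09%, against 16.0%) and TGTTTAC in 1, that of Foxa1 (3.03%, against 3.17%). CCAAT was present in 14 (42.4%, against 33.8%) and the GC box in 23 (69.7%, against 32.7%). Forkhead promoters were also richer in G and C, with a median of 62.0% against 52.4% for all, and held a median of 16 CpG pairs against 6. The 20 promoters of members measured on both arrays had a median of 63.8% G and C and 18.5 CpG pairs, and the 13 of the remaining members 58.8% and 12.

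Foxm1, the proliferative member, was lower in knockdown cells. Its brightest probe gave 2228 in control and 1279 in knockdown cells (-0.80 ± 0.20), and its second probe 210.4 and 171.9 (-0.29 ± 0.21). Both measured probes were lower, and the mean difference was -0.55 ± 0.14. The remaining probe (2.60 and 2.85) was not well above background; counted in without the filter on dim probes it brought the mean to -0.32.

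Genes that FOXM1 is known to drive in G2 and mitosis were lower together. All 30 of a list of 30 were measured and all were below 0, against 48.8% of all genes, with a median of -0.64 against 0.01. At least 2-fold lower were 2, against 2.41% of all genes. Skp2, which marks the CDK inhibitor p27 for destruction, gave 2438 and 1003 (-1.28 ± 0.20; -0.58 without the filter on dim probes). Hmmr, a spindle protein, gave 1857 and 881 (-1.13 ± 0.12 over 3 probes). Next were Aurkb, a kinase of the chromosomal passenger complex (1697 and 877, -0.95 ± 0.14), and Ube2c, an enzyme of the anaphase-promoting complex (15683 and 8621, -0.86 ± 0.20), both measured only in the last rows.

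At the other end of the list were Bub1b at -0.36, Cks1b at -0.33, Nek2 at -0.27 and Cenpb at -0.10. The probes of Cenpb, a centromere protein, were on opposite sides of 0 (-0.42 and 0.21), and Cenpb was above 0 with normexp background correction and wherever its brighter probe was used alone. The lower signal of mitotic genes was already known in these arrays when the list was drawn up, so it gives no independent evidence. Whether it reflects fewer dividing cells or less RNA in each cell cannot be told apart in such bulk RNA.

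Partners of FOXM1 were mixed. The list held 21 genes, for the B-MYB and MuvB complexes, E2F factors, and activating kinases and cyclins. It also held Rb1, Rbl1, Rbl2, Fzr1 and Ctnnb1. All were measured, 9 were above and 12 below 0, and the median was -0.05. Without the last 64 rows 15 were measured, 5 above and 10 below 0, with a median of -0.24. Ccne1, a cyclin of the G1/S transition, gave 14827 and 4398 (-1.75 ± 0.20). Mybl2, which encodes B-MYB, gave 11703 and 3535 (-1.73 ± 0.20), measured only in the last rows. Ccna2, the cyclin of S and G2 phase, gave 6782 and 3018 (-1.16 ± 0.14). These 3 were at least 2-fold lower, against 2.41% of all genes, and E2f4 was lower by a smaller margin (-0.86, last rows only). Highest was Cdk6, a G1 kinase, at 1511 and 3045; over 3 probes its difference of 0.999 (probes 0.94 to 1.05) was just short of 2-fold. E2f1 (0.40, last rows only), Rbl2 (0.22) and Lin52 (0.17) followed.

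All 4 FOXO genes were measured, and they differed from one another: Foxo1 and Foxo3 were higher, Foxo6 lower and Foxo4 close to 0, with a median of 0.15. Foxo1 gave 1328 and 2459 on its brighter probe, which lies in the last rows (0.89), and 906 and 1903 on the other (1.07). Both probes were higher in knockdown cells, with a mean of 0.98 ± 0.14. Over the alternatives tried its difference stayed between 0.89 and 1.07, and it passed 2-fold where the last rows were left out.

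Foxo3, a broadly expressed FOXO factor of stress resistance and quiescence, was higher on 3 of its 4 measured probes. In order of brightness these gave 137.5 and 215 (0.64), 69.4 and 93.5 (0.43), and 33.8 and 48.0 (0.51). The dimmest gave 21.3 and 19.8 (-0.11). The mean was 0.37 ± 0.13, with 0.64 on the brightest probe alone and 0.18 with normexp.

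Foxo6, expressed mainly in brain, gave 1618 and 1278 (-0.34 ± 0.20) on a probe in the last rows. Foxo4 gave 69.1 and 65.8 on its measured probe (-0.07 ± 0.22), well within the spread between probes of a gene. Its second probe, in the last rows, gave 18.5 and 4.15 and was well above background only in control cells, where it was at least 1.42-fold higher. Without the filter on dim probes the mean for Foxo4 was -1.11, and with normexp it was 0.05.

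FOXO target genes of arrest and death were more often higher than lower. Of 20 listed, 19 were measured, 14 of them above 0 (73.7%, against 51.2% of all genes), with a median of 0.22. The 2 genes at least 2-fold higher (against 3.67% of all genes) were sestrins, stress-induced inhibitors of mTORC1 signalling. Sesn1 gave 859 and 2089 (1.28 ± 0.20), and Sesn3 350.2 and 710 (1.05 ± 0.14; 0.92 on the brighter probe alone and 0.86 with normexp). Klf2, a quiescence factor, followed at 543 and 984 (0.86), and Sesn2 at 0.63.

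Other genes of the same list were lower. Klf6, a zinc finger growth suppressor, gave 5611 and 3007 (-0.90 ± 0.20). Ccng2, an atypical cyclin of arrested cells, was at -0.82, and Gadd45a, a DNA damage response gene, at -0.70. Cdkn1a, which encodes the CDK inhibitor p21, was at -0.56, and had the opposite sign without the filter on dim probes. None of the list was at least 2-fold lower, against 2.41% of all genes.

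Among FOXO targets of stress, metabolism and autophagy, 22 of the 26 on the array were measured, 14 above and 8 below 0, with a median of 0.20. Selenop, a selenium transport protein, gave 260 and 720 (1.47 ± 0.20). Pik3ip1, an inhibitor of PI3K, gave 147 and 495; its 3 probes lay between 0.61 and 1.80, with a mean of 1.21 (0.72 with normexp). Trim63, a ubiquitin ligase of muscle wasting, was at 0.84, and Irs2, an insulin receptor substrate, at 0.83 (last rows only).

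The largest differences in that list were downward. Prdx3, the mitochondrial peroxiredoxin, gave 3856 and 695 (-2.47 ± 0.20) and was measured only in the last rows. Fbxo32, the ubiquitin ligase atrogin-1, gave 978 and 305 (-1.68 ± 0.20). Thus Trim63 and Fbxo32, both known as muscle atrophy targets of FOXO, lay on opposite sides of 0. Pink1 at -0.78 and Gabarapl1 at -0.55, genes of mitophagy and autophagy, were also lower.

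Genes that regulate FOXO proteins were all measured (30 of 30), 12 above and 18 below 0, with a median of -0.06. Sgk2, a kinase related to AKT, gave 643 and 139.8 (-2.20 ± 0.21). It and Skp2, which also targets FOXO1, were among the 3 genes at least 2-fold lower (against 2.41% of all genes). Sirt1, a deacetylase of FOXO proteins, gave 774 and 414 (-0.90). At the upper end were Pik3r1 (0.72, last rows only), Sgk1 (0.34), Ywhag (0.25) and Stk4 (0.14), and none was 2-fold higher. Phosphorylation and location of FOXO proteins were not measured.

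**Figure D3:**
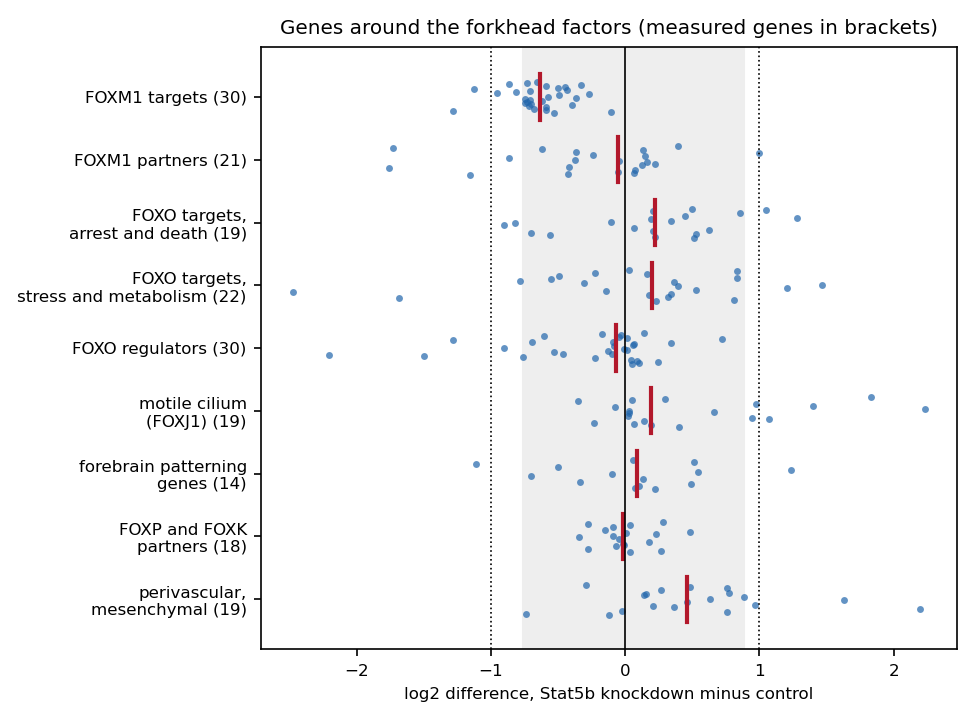
Log2 difference, knockdown minus control, of each measured gene in the lists of known targets, partners and related genes of forkhead factors (blue points), with the list's median in red, the 2-fold limits dotted and the 5th to 95th percentile of all genes (-0.76 to 0.89) as a grey band. The FOXM1 targets lie entirely below 0 (median -0.64), whereas the medians of the other lists lie between -0.06 and 0.46.

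All 8 broadly expressed members were measured, 5 above and 3 below 0, with a median of 0.16. Foxp1 passed 2-fold upward (12.8 and 26.5, 1.05 ± 0.38), but on a probe near the detection limit, while its 4 other probes were not well above background on either array. Its difference was 0.29 with normexp and 0.15 without the filter on dim probes. Foxp4, of the same repressor subfamily, was bright and close to 0 (6986 and 7402, 0.08 ± 0.20).

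Foxn3, a repressor linked to cell cycle checkpoints, gave 325 and 504 (0.63 ± 0.20) on a probe in the last rows; its 3 other probes were not well above background. Foxk1 gave 295 and 402 (0.45 ± 0.20), whereas Foxk2 gave 2663 and 2558 (-0.06 ± 0.20; 0.07 with normexp). FOXK1 and FOXK2 are related repressors of autophagy genes. Foxj3 was slightly higher on both probes (4602 and 5547, 0.27; 36.6 and 42.8, 0.23; mean 0.25 ± 0.16), within the spread between probes of a gene.

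Foxj2 and Foxn2 were lower. Foxj2 gave 279.8 and 196 (-0.51 ± 0.21). Foxn2 gave 413 and 246 on its brighter probe (-0.75) and 28.8 and 28.2 on its dimmer one (-0.03), with a mean of -0.39 ± 0.17, so that the difference rested on the brighter probe. Known corepressors and partners of FOXP and FOXK proteins stayed close to 0. Of 19, 18 were measured, 8 above and 10 below 0, with a median of -0.01 and a range from -0.34 (Dvl1) to 0.48 (Ogt). None was beyond 2-fold, against 6.08% of all genes.

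Of the 31 developmental members 16 were measured, 10 above and 6 below 0, with a median of 0.11. Among the 8 neural ones 3 were measured. Foxn4, a factor of retinal and spinal cord progenitors, gave 179 and 153 (-0.23 ± 0.21, last rows only). Foxj1, the master regulator of motile cilia, was dim and higher (21.1 and 31.1, 0.56 ± 0.30), with 0.16 after normexp.

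Of 30 genes of forebrain patterning, 16 were not well above background on either array, against 34.9% of all genes. Of the 14 measured, 9 were above and 5 below 0, with a median of 0.09. Bcl11b, a factor of deep-layer cortical and striatal neurons, gave 81.7 and 216 (1.24 ± 0.16; 0.77 with normexp). Otx2, a factor of the anterior neural plate, gave 86.2 and 40.0 (-1.11 ± 0.24), and lost 2-fold with normexp (-0.54) and without the filter on dim probes (-0.21). Closer to 0 were Nr2f1 (0.55), Dlx2 (0.51) and Nr2f2 (0.49), and on the other side Pax6 (-0.70), Lhx2 (-0.50) and Dlx1 (-0.33).

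Motile cilium genes listed around FOXJ1, both cilium components and regulators such as Myb and Rfx4, included a few with large differences and many near 0. Of 39 on the array 19 were measured, 16 of them above 0 (84.2%, against 51.2%), with a median of 0.20. By at least 0.31, 8 were higher (against 23.0% of all genes) and 1 lower. Another 17 were not well above background on either array, where the figure for all genes was 34.9%. Lrrc23, a radial spoke protein, gave 90.3 and 426 (2.24 ± 0.21). Iqcg, a dynein regulator, gave 37.1 and 132 (1.83 ± 0.23; 0.97 with normexp). Rsph1, another radial spoke protein, gave 148 and 389 (1.40 ± 0.21) and was measured only in the last rows. Cfap126, a basal body protein, gave 916 and 1943 (1.07 ± 0.14; 0.97 with normexp).

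These 4 of the 19 measured were at least 2-fold higher, against 3.67% of all genes. None of the 19 was at least 2-fold lower, against 2.41%. However, 3 further genes were well above background only in control cells, as were 2.32% of all genes. These were Myb (34.1 and 13.3), at least 2.56-fold higher in control, Dnah9 (26.2 and 12.7), at least 2.02-fold higher, and Rfx4 (15.3 and 10.4), at least 1.18-fold higher. The lowest measured were Pifo (-0.35, of opposite sign without the filter), Tppp3 (-0.23), Ccno (-0.07) and Hydin (0.02). Ependymal cells carry such cilia. Of 8 ependymal markers on the array 5 were measured, 3 of them above 0, with a median of 0.14. These markers include Foxj1 itself, and all the others are in the cilium list above, so they give no separate evidence. Rsph4a, Tekt1 and Spag6l were not well above background. The part of such cells in the result was not tested.

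Of the 5 endoderm members 2 were measured, both on bright probes. Foxa2, a pioneer factor of endoderm and of the floor plate of the neural tube, gave 1771 and 2578 (0.54 ± 0.20). Foxh1, which partners SMAD proteins in nodal signalling, gave 1243 and 1190 (-0.06 ± 0.20).

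The members of mesoderm and vasculature held the largest differences in both directions. Of 10, 8 were measured, 5 above and 3 below 0, with a median of 0.08. Foxc1 gave 413 and 1300 (1.65 ± 0.20), 3.15-fold higher in knockdown cells and between 1.51 and 1.66 over the alternatives tried. Its second probe (2.82 and 7.32) did not stand well above background, so the value rests on a single probe. Foxs1, a marker of pericytes and of the peripheral sensory lineage, was also higher (644 and 1120, 0.80 ± 0.20).

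Foxd2, a factor of embryonic mesenchyme, was the lowest forkhead gene. It gave 230.4 and 87.5 (-1.40 ± 0.21), or 37.9% of control, and -1.02 with normexp. Foxc2, which acts in lymphatic and valve formation, gave 383 and 295 (-0.38 ± 0.20), and Foxf1, a factor of gut and lung mesenchyme, 793 and 648 (-0.29 ± 0.20). Thus Foxc1 and Foxc2, the closest relatives in this group, lay on opposite sides of 0.

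The remaining 3 were within the spread between probes of a gene. Foxl2, a factor of ovarian granulosa cells, gave 16383 and 17099 (0.06 ± 0.20, last rows only). Foxq1 gave 113 and 126 (0.16 ± 0.21) and Foxl1, a factor of gut mesenchyme, 43.5 and 46.9 (0.11 ± 0.25), and with normexp both were just below 0 (-0.04 and -0.01).

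Several of these genes are neighbours in the RefSeq gene order used here, which also holds antisense entries such as Foxd2os. On chromosome 13 Foxq1 (0.16), Foxf2 (not well above background) and Foxc1 (1.65) follow one another, and the next genes beyond Foxc1, Gmds (-0.04) and Mylk4 (-0.25), were not higher. On chromosome 8 Foxf1 (-0.29) is followed by Mthfsd, a gene outside the family (288 and 503, 0.86 ± 0.10), then by Foxc2 (-0.38) and Foxl1 (0.11). On chromosome 4 Foxd2 (-1.40) lies beside the antisense transcript Foxd2os, which gave 235 and 95.7 (-1.30 ± 0.21), and Foxe3 (0.31) comes next. Foxd2 and its antisense neighbour were therefore lower by similar amounts, on separate probes. Foxe3 (13.7 and 17.0) sat at the detection limit, so a fall there could not have been measured as a difference. The next genes beyond Foxe3, Cmpk1 (-0.45 ± 0.20) and Stil (-0.65 ± 0.15), were also lower.

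Perivascular and mesenchymal genes, among which FOXC, FOXF, FOXD1 and FOXS1 act, were mostly higher. Of 25 on the array 19 were measured, 15 of them above 0 (78.9%, against 51.2%), with a median of 0.46 (0.17 to 0.46 over the alternatives). Pdgfrb, the PDGF receptor of pericytes, gave 16.6 and 76.1 (2.20 ± 0.33; 0.75 with normexp). Col1a2, a fibrillar collagen chain, gave 240 and 886 (1.63 ± 0.19; 1.07 with normexp and 0.23 without the filter). These 2 were at least 2-fold higher, against 3.67% of all genes. None of the 19 was at least 2-fold lower, but Lum, a listed matrix proteoglycan, stood well above background in control cells alone (76.8 and 3.21), where it was at least 5.92-fold higher. Dcn, a related proteoglycan, gave 343 and 671 (0.97). Pdgfra was dim (25.3 and 46.9, 0.89, last rows only), and lay between 0.04 and 0.89 over the alternatives.

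Lowest in the list were Snai2, a repressor of epithelial genes (3490 and 2094, -0.74), Notch3 (-0.29, last rows only), Acta2 (-0.12) and Zic1 (-0.02). Of the 7 mural cell and fibroblast markers on the array, 6 were measured, 5 of them above 0, with a median of 0.86 (0.46 without the filter on dim probes). The seventh was Lum. All 7 are also in the perivascular and mesenchymal list, so their count and median give no separate evidence. The part of such cells in the values of Foxc1 and Foxs1 was not tested.

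Among the 8 members of epithelial, immune, germ line and sense organ lineages 3 were measured. Foxn1, the factor of thymic epithelium and hair, gave 85.9 and 65.4 (-0.40 ± 0.22). Foxe3, a lens factor, gave 13.7 and 17.0 (0.31 ± 0.42) and Foxr1 13.5 and 14.7 (0.12 ± 0.42). The last pair sat at the detection limit, with differences smaller than their software error.

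**Figure D4:**
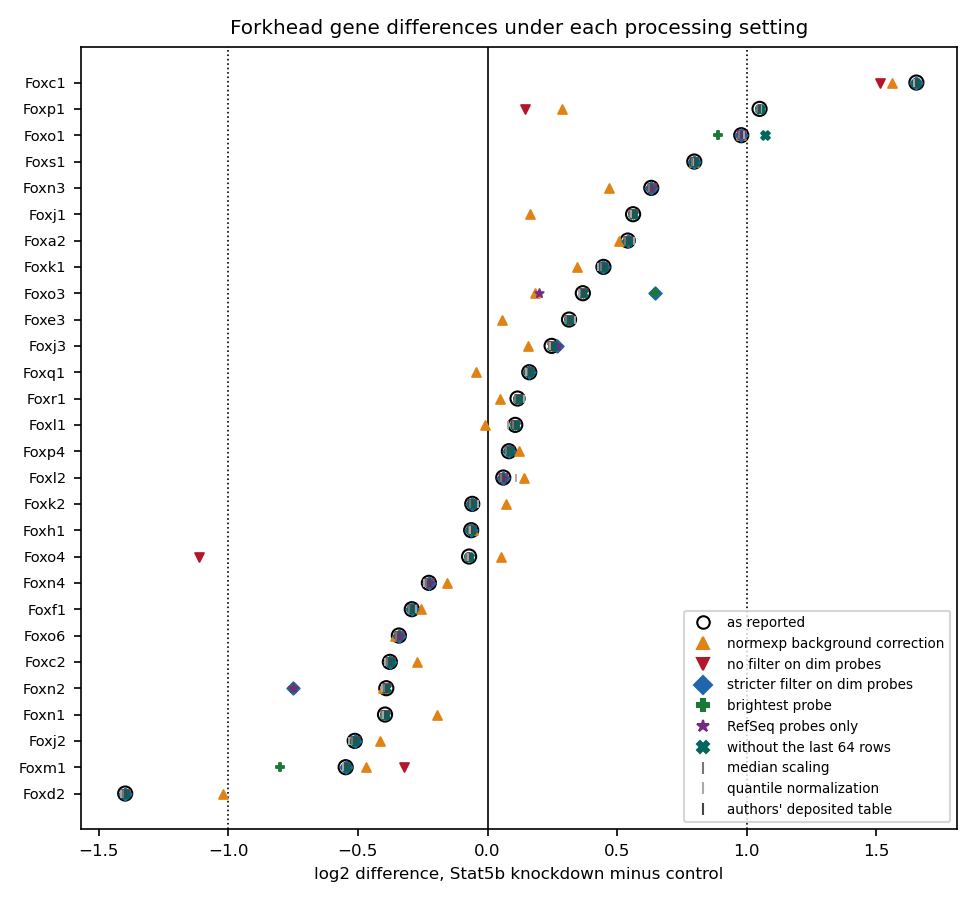
Log2 difference, knockdown minus control, of each measured forkhead gene reported here, as processed in the text (open circles) and under each alternative processing (coloured symbols), with 2-fold dotted. Foxc1 stays between 1.51 and 1.66 and Foxo1 between 0.89 and 1.07, whereas Foxp1 drops to 0.15 and Foxo4 to -1.11 without the filter on dim probes.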

How the data were processed

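Total RNA of each culture was labelled with Cy3 and hybridised to an Agilent array of 60-base probes. The deposited scanner files hold processed intensity per spot, background-subtracted by Agilent Feature Extraction 12.1.0.3 (protocol GE1_1200_Jun14), with flags for outliers and for signal well above background, per the file headers, which name build mm9. The authors' deposited table holds log2 values equal to log2 of that signal minus a constant (8.94 on both arrays). This held within 0.001 for 100% of the probes with a single spot, and probes with replicate spots were not compared. The table had column medians of -3.834 and -3.825, and served as an alternative and for symbols.

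Here log2 intensity minus the array's 75th percentile was used, with signals floored at 1; control spots were left out, replicate spots averaged, and genes were named by RefSeq accession or symbol. No forkhead probe had an outlier flag. Probes of different members shared at most 11 of 60 bases in a run. Differences used probes well above background on both arrays (Python 3.11.15, numpy 2.4.6, pandas 2.3.3). Where a gene was well above background on 1 array only, the bound divided the bright signal by the dim array's detection limit (its lowest signal well above background) or by the gene's own dim signal, whichever was larger. The scripts were tested on simulated data. Alternatives were normexp (limma 3.58.1, R 4.3.3, offset 50) on the median signal, the authors' table, no or a stricter filter (signal of at least 100), the brightest probe, RefSeq probes and leaving out the last 64 rows, among others.

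In each list the 4 highest and 4 lowest measured genes, and all beyond 2-fold, were named, except that values of a few genes, among them a forkhead member, are not reported here and stay only in the counts and medians. The members and lists were chosen with earlier results of these data known. Array signals limit precision through their number, 1 per group.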

Additional observations from a re-analysis of the deposited data

How the results depend on the processing

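No paired analysis was possible because there was 1 array in each group, and no replicate could be left out. Of 29 measured forkhead genes, 25 kept their sign in every alternative that gave a value and 4, Foxk2 (0.07), Foxl1 (-0.01), Foxo4 (0.05) and Foxq1 (-0.04), changed it with normexp. The 2 members at least 2-fold higher became 1 with normexp, 1 without the filter on dim probes and 1 with the stricter filter, Foxc1 in each case. Without the last 64 rows Foxo1 reached 2-fold, and the count was 3. The 1 member at least 2-fold lower became 3 without the filter (Foxd2, Foxi3 and Foxo4). Over all genes 601 were at least 2-fold higher and 394 lower. These became 188 and 164 with normexp, and 1283 and 1000 without the filter, which adds dim probes by construction; the stricter filter, which tests fewer genes, left 400 higher. The median of the microglia and immune markers was 0.22, and 0.54 on the brightest probe, and that of mural cell and fibroblast markers fell from 0.86 to 0.46 without the filter. The cause was not tested. Signal over background limits Foxp1, Foxe3, Foxr1 and Foxj1, all dim.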

Other observations

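The symbols left out of the family gave clear signals. Foxred1, an assembly factor of respiratory complex I, was lower on both probes (2050 and 1366, -0.59 ± 0.20; 217 and 147, -0.57 ± 0.21). Foxred2, a protein of endoplasmic reticulum degradation, was higher on its brighter probes (884 and 1512, 0.77 ± 0.20; 313 and 538, 0.78 ± 0.20) and at -0.11 on the dimmest (46.1 and 42.6). Foxl2os, antisense to Foxl2, gave 156 and 98.1 (-0.67 ± 0.21), whereas Foxl2 itself was at 0.06 (last rows only).

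Genes beside other members differed from them in some places and lay close to them in others. Those given here are examples and not all the neighbours. Next to Foxm1 (-0.55), Rhno1 was at -0.11 and Tulp3 at 0.36. Next to Foxo1 (0.98), Maml3 was at 0.23 and Cog6 at 0.55. Beside Foxp1 (1.05), Eif4e3 was at 0.88, and beside Foxs1 (0.80), Mylk2 was at -0.52.

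Markers of immune and endothelial cells were detected in part. Of 9 microglial and immune markers 5 were measured, 4 of them above 0. Ptprc gave 3288.5 and 4830.7 (0.55 ± 0.20) and was measured only in the last rows. Csf1r gave 487 and 599 (0.22 ± 0.14, with probes at -0.10 and 0.54) and Tmem119 32.7 and 114 (1.80 ± 0.24). Itgam gave 2139 and 2331 (0.11 ± 0.18) and Cd68 1468 and 1039 (-0.48 ± 0.12). Aif1, Cx3cr1, P2ry12 and Tyrobp were not well above background on either array. Of 6 endothelial markers 3 were measured, Flt1 (1093 and 1169, 0.09 ± 0.12), Pecam1 (50.2 and 60.1, 0.26 ± 0.23) and Cdh5 (84.7 and 50.4, -0.75 ± 0.23), while Cldn5, Kdr and Tek were not well above background. The part of such cells in the forkhead values was not tested.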
